A study of Homo sapiens with 12 samples.

Results

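Chemokines and inflammatory cytokines are secreted signals, and 10 of their genes are described here in sarcoma cells that express a YAP or TAZ fusion protein: CXCL12, CXCL1, CXCL2, CXCL3, CXCL8, CCL2, IL6, IL11, LIF and IL1B. They are the rows of the count table whose gene symbol is one of these names, 10 of 58735 genes listed, and each name matched 1 row. The list was chosen by measured values: it was built around CXCL12, whose counts moved in opposite directions with the YEATS2 hairpin in the 2 fusion lines, so the values of the members and gene lists with the YEATS2 hairpin are given as a description, with no p. The host of both fusions was SW872, an established line from a human liposarcoma, and the cells stably expressed TAZ-CAMTA1 (TC), the fusion of most epithelioid hemangioendotheliomas, or YAP-TFE3 (YT), the fusion of a smaller subset of these vascular sarcomas. Each line carried a non-targeting hairpin (shNT), a hairpin against YEATS2 (shYEATS2) or a hairpin against ZZZ3 (shZZZ3), with 2 libraries in each of 6 groups. YEATS2 and ZZZ3 are subunits of the ATAC complex, a histone acetyltransferase. All 6 groups therefore carry a fusion and a hairpin. The fusions and hairpins were introduced by viral vectors and kept by drug selection, and the host cells keep their own YAP1, WWTR1 (TAZ), CAMTA1 and TFE3 genes. The study's general RNA-seq methods have lines with a CAMTA1 construct harvested before confluence and other lines after it, and if this held for these libraries, fusion and cell density cannot be told apart between TC and YT. The study calls the libraries of a group biological duplicates, and for its sequencing in general it names separate transduction with the fusion constructs as the source of replicates. Whether the hairpins were introduced separately for each library is not stated, and the p-values measure the spread between these libraries.

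The members fall into 4 families by role. CXCL12 is a homeostatic chemokine that binds CXCR4 and the scavenging receptor ACKR3 and guides the migration of stem cells, leukocytes and tumour cells. CXCL1, CXCL2, CXCL3 and CXCL8 are neutrophil attractants that act through CXCR1 and CXCR2, and CCL2 attracts monocytes through CCR2. IL6, IL11 and LIF signal through receptors that share the subunit IL6ST (gp130) and activate JAK kinases and STAT3, which in turn induces the feedback inhibitor SOCS3. IL1B is made as a precursor that is cut by caspase-1 in inflammasomes such as that of NLRP3, and its receptor IL1R1 activates NF-kB, a dimer of proteins coded by NFKB1, NFKB2, REL, RELA and RELB that induces many of the other members. Connective tissue and sarcoma cells can make all of these signals, while IL1B is best known from myeloid cells.

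Total counts per library ranged from 17451893 to 29294805. YEATS2 was lower in both libraries with its hairpin than in both shNT libraries of either line, with log2 fold changes of -1.54 (SE 0.177, edgeR adjusted p 0.0138) in TC and -1.68 (SE 0.178, edgeR adjusted p 0.000104) in YT. ZZZ3 was at -1.51 in YT shZZZ3 (SE 0.426, edgeR adjusted p 0.0453) and at -0.94 in TC shZZZ3 (SE 0.422, edgeR adjusted p 0.450), so its knock-down did not pass the test in TC, where the shNT libraries read 25.6 and 60.4 CPM and the shZZZ3 libraries 21.9 and 22.7 CPM. Over the 13258 genes that averaged 50 counts or more, the SD of the log2 difference between the libraries of a pair was 0.622 in TC shNT, 0.559 in YT shZZZ3 and 0.513 in TC shYEATS2, against 0.214 to 0.268 in the other 3 groups. The mesenchymal markers VIM and FN1 were abundant in every library (at least 696 and 2577 CPM). The leukocyte marker PTPRC did not exceed 0.158 CPM, and the summed level of 8 leukocyte markers lay between 2.10 and 5.09 CPM in 5 groups and between 7.74 and 7.95 CPM in YT shYEATS2, where CD14 made up 4.0 CPM; MS4A1 was at 0 counts in all libraries. Of the adipocyte markers, LEP was at 0 counts in all libraries, ADIPOQ at no more than 0.0516 CPM and FABP4 at no more than 0.296 CPM. PLIN1 was detected in every library, at 0.284 to 1.55 CPM, with its highest group mean in YT shYEATS2 (1.54 CPM). The endothelial markers CDH5 and KDR were detected in every library, with a summed level of 4 endothelial markers of 31.7 to 74.4 CPM in TC shNT, TC shZZZ3, YT shNT and YT shYEATS2 and of 137 to 139 CPM in YT shZZZ3. In TC shYEATS2 it was 46.8 CPM in 1 library and 245 CPM in the other. Of the 4 epithelial markers, KRT18 read 215 to 739 CPM and KRT8 43.8 to 315 CPM, while EPCAM did not exceed 1.91 CPM and CDH1 0.65 CPM. Their summed level was 290 CPM in 1 TC shYEATS2 library and 911 CPM in the other.

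The DNA before the start sites is shown first, because 4 of the chemokine genes sit together in the genome and carry the same letters at nearly the same place. CXCL8, CXCL1, CXCL3 and CXCL2 lie on chromosome 4 within 73740519 to 74099196 of GRCh38, all in 1 cluster of CXC chemokine genes, while CXCL12 is alone on chromosome 10 (44370165 to 44386493, minus strand). Promoter sequences from RefSeq (GRCh38.p14) were held for 8 members. The table has no entry for CCL2 and LIF. The windows below run from 140 to 51 bases before the RefSeq start, 5′ to 3′ on the gene's strand, with matches to GGANNTTCC, a letter pattern typical of NF-kB sites, in capitals (either strand searched). CXCL12 is printed beside them as the member on which the list was built.
CXCL1 (chr4:73869253-73869342, plus strand): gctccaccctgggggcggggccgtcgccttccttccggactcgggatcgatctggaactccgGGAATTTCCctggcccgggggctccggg
CXCL2 (chr4:74099246-74099335, minus strand): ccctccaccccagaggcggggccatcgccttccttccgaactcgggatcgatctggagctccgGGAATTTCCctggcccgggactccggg
CXCL3 (chr4:74038740-74038829, minus strand): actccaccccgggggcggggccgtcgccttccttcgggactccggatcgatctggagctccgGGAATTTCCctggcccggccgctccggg
CXCL8 (chr4:73740429-73740518, plus strand): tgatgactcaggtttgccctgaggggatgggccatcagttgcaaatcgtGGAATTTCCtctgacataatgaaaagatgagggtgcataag
IL6 (chr7:22727060-22727149, plus strand): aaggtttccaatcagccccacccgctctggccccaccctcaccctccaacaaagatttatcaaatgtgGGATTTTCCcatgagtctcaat
CXCL12 (chr10:44385148-44385237, minus strand): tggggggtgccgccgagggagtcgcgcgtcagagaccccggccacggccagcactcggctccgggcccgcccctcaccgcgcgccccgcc

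The match begins 78 bases before the start in CXCL1 and CXCL3, 77 in CXCL2, 91 in CXCL8 and 72 in IL6. In the 250 bases before the start these 5 members held the pattern and the other 3 with a sequence (CXCL12, IL11 and IL1B) did not, against 3.84% of 35116 promoters of the same length. The windows of CXCL1 and CXCL3 were identical at 83 of 90 bases, and that of CXCL2, shifted by 1 base, matched CXCL1 at 77 of 89. TGACTCA, the letters of AP-1 sites, was found in CXCL8 from 137 bases before the start and on the opposite strand in IL11 from 96 bases before it, against 4.2% of all promoters. GGAATG, the core letters of TEAD sites (11.9% of promoters), and the E-box CACGTG, which TFE3 and its relatives can bind (6.34%), were found in none of these 8 windows of 250 bases. A match of letters is a description of the sequence, and no binding was measured here.

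CCL2 was by far the most abundant member per length of transcript, and the order of the rest differed between the lines. On the scale of CPM per kilobase of exon, the group means of CCL2 ran from 16.5 in TC shNT to 38.6 in YT shYEATS2. CXCL12 was second in 5 groups, from 1.61 in TC shNT to 5.74 in TC shYEATS2, and sixth in YT shYEATS2 at 0.992. In TC shNT it was followed by CXCL1 (0.782), LIF (0.619), CXCL8 (0.430), IL11 (0.410), IL1B (0.178), CXCL3 (0.140), CXCL2 (0.106) and IL6 (0.0939); the libraries of CXCL8 and IL11 overlapped, as did those of IL1B and CXCL3, CXCL3 and CXCL2, and CXCL2 and IL6. In YT shNT LIF followed CXCL12 at 2.59, with libraries that overlapped those of CXCL12 (2.73), before CXCL8 (1.43), IL1B (1.03), CXCL1 (0.711), IL6 (0.597), IL11 (0.330), CXCL2 (0.251) and CXCL3 (0.113). The libraries overlapped there between IL1B and CXCL1, CXCL1 and IL6, IL11 and CXCL2, and CXCL2 and CXCL3. All 10 members passed the minimum of a mean of 5 counts, CXCL2 (mean 5.42 counts) and CXCL3 (mean 9.25 counts) only narrowly. Reads of the paralogs may be split: 108 stretches of 75 bases are shared by transcripts of CXCL2 and CXCL3 (7.35% and 4.57% of those in each), 3 by CXCL1 and CXCL2 and 0 by CXCL1 and CXCL3, and the counting of such reads is not stated.

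**Figure D1:**
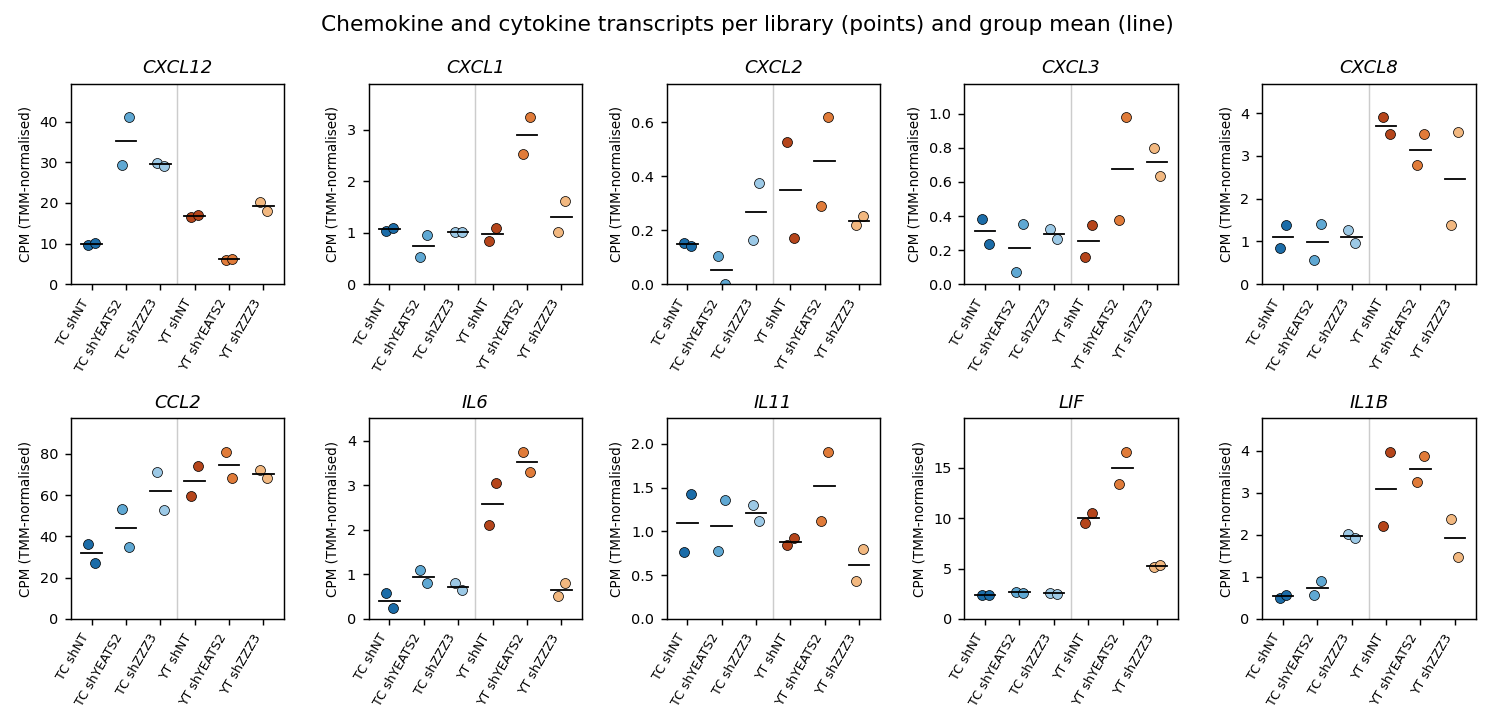
Level of each member in CPM (TMM-normalised, linear axes from 0) in the 6 groups; points are the 2 libraries of a group and the line is their mean. LIF, IL6 and IL1B are higher in both YT shNT libraries than in both TC shNT libraries, and CXCL12 is between 29.0 and 41.1 CPM in the TC knock-downs against 9.73 and 10.1 CPM in TC shNT.

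The fusion lines were compared under the control hairpin, to see how the secreted signals differ between YT and TC cells. By the fitted folds, IL6, IL1B and LIF were 4 to 5 times as high in YT shNT as in TC shNT. CXCL8 was about 3 times and CCL2 about 2 times as high, with a smaller difference in CXCL12. These folds are shrunk by a prior count of 2. The mean CPM of IL6 was 2.58 in YT shNT and 0.406 in TC shNT, and that of IL1B 3.09 and 0.535. Of the 10 members, 6 were called higher and 0 lower, where 5.58% of all 18415 genes tested were called higher and 3.65% lower. The median log2 fold change of the members was 0.98, against -0.01 over all genes tested. LIF read 2.40 and 2.39 CPM in TC shNT and 9.56 and 10.5 CPM in YT shNT (log2 fold change 2.02, SE 0.230, edgeR adjusted p 0.000341). IL6 read 0.572 and 0.239 CPM in TC shNT and 2.11 and 3.05 CPM in YT shNT (2.40, SE 0.429, edgeR adjusted p 0.00331), which rests on 15 and 5 counts in TC. Both LIF and IL6, which signal through gp130, were thus higher in each YT shNT library than in either TC shNT library. IL1B read 0.496 and 0.573 CPM in TC shNT and 2.22 and 3.97 CPM in YT shNT (2.35, SE 0.410, edgeR adjusted p 0.00313). CXCL8 read 0.839 and 1.39 CPM in TC shNT and 3.91 and 3.51 CPM in YT shNT (1.67, SE 0.497, edgeR adjusted p 0.0493). CCL2 read 36.5 and 27.3 CPM in TC shNT and 59.6 and 74.0 CPM in YT shNT (1.06, SE 0.252, edgeR adjusted p 0.0230). None of these groups overlapped. CXCL12 read 9.73 and 10.1 CPM in TC shNT and 16.5 and 17 CPM in YT shNT (0.75, SE 0.210, edgeR adjusted p 0.0447), close pairs with a small difference. The choice of CXCL12 used its values in these same shNT libraries, so its p is not free of that choice. The other 4 members did not pass: CXCL1 was at -0.13, CXCL2 at 0.90, CXCL3 at -0.26 and IL11 at -0.27 (edgeR adjusted p 0.396 to 0.866). IL11, the remaining gp130 cytokine of the list, read 0.763 and 1.43 CPM in TC shNT and 0.845 and 0.920 CPM in YT shNT, overlapping groups. Of the 5 members with the NF-kB letters, IL6 and CXCL8 were called and CXCL1, CXCL2 and CXCL3 were not.

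The calls of LIF, IL6 and IL1B held under all 8 other settings and with each of the 12 libraries left out, with log2 fold changes of 1.93 to 2.06, 1.99 to 3.0 and 1.87 to 2.69 when a library was left out. CXCL12, CXCL8 and CCL2 lay near the threshold: leaving out TC shNT replicate 2 gave CCL2 0.84 and YT shNT replicate 2 gave 0.87, without YT shNT replicate 1 it was 1.19, and none of the 3 passed (edgeR adjusted p 0.0592 to 0.192). CXCL8 lost its call with RLE size factors, library totals or filterByExpr (edgeR adjusted p 0.0510 to 0.0811), CXCL12 with library totals, no filter or the shNT groups fitted alone (edgeR adjusted p 0.0558 to 0.162), and CCL2 with the shNT groups fitted alone (edgeR adjusted p 0.0741). CXCL8 also lost it without TC shNT replicate 1, either TC shZZZ3, either YT shNT or either YT shYEATS2 library (1.34 to 1.72, edgeR adjusted p 0.0760 to 0.244), and CXCL12 without any of 9 libraries, the exceptions being both TC shYEATS2 libraries and YT shZZZ3 replicate 1 (0.70 to 0.75, edgeR adjusted p 0.0502 to 0.226). IL6 overlaps STEAP1B on the opposite strand, and whether counting used strand is not stated. STEAP1B had 377 to 656 counts per library and was at -0.05 in this comparison (edgeR adjusted p 0.899). The summed leukocyte markers were 2.10 to 2.29 CPM in TC shNT and 2.53 to 2.75 CPM in YT shNT. The most abundant was CD14 in TC shNT (mean 1.01 CPM) and ITGAM in YT shNT (mean 0.875 CPM). Of the 5 tested, 1 was called higher in YT shNT and 0 lower. The shares over all genes tested were 5.58% higher and 3.65% lower. The part of the leukocyte markers in the IL1B difference was not tested.

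**Figure D2:**
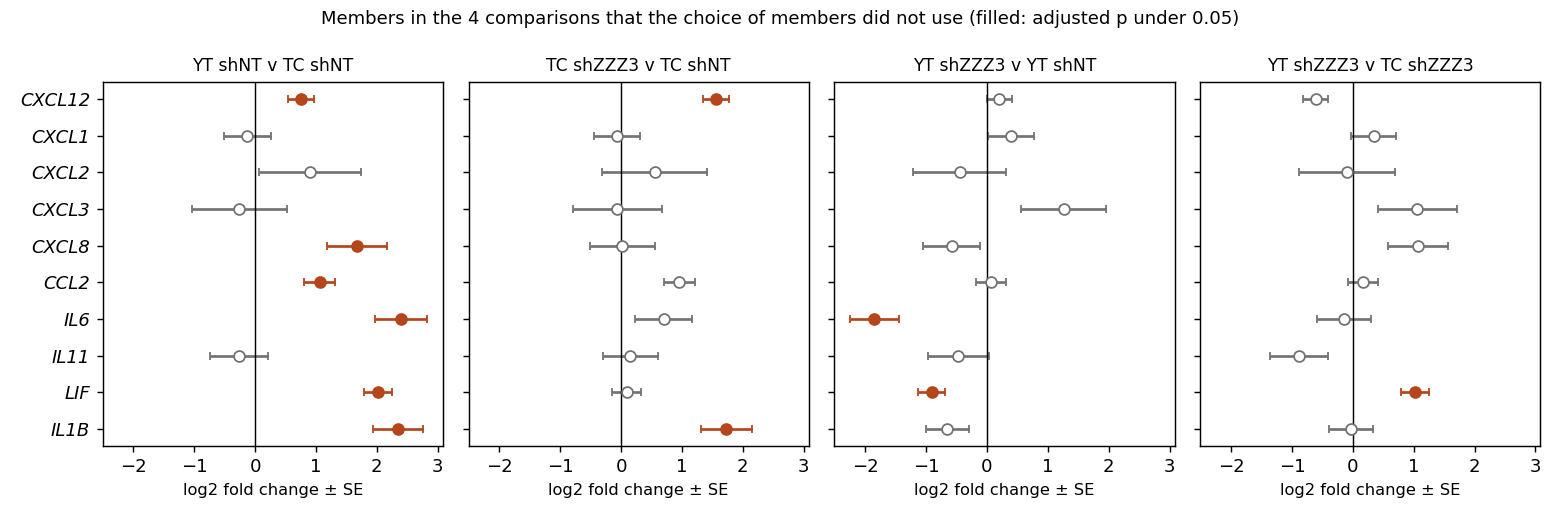
Log2 fold change, shrunk by the prior count, with the SE of the unshrunk value for each member (rows) in 4 comparisons (panels) without shYEATS2. The panels with shNT share those libraries with the comparisons on which CXCL12 was chosen. Filled red points have an edgeR adjusted p under 0.05. The panel of YT shNT against TC shNT holds 6 filled points, all to the right of 0, and the panel of the shZZZ3 lines against each other holds 1, LIF at 1.02.

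The effect of the ZZZ3 hairpin was measured within each line. In TC cells CXCL12 rose about 3-fold. It read 9.73 and 10.1 CPM in TC shNT and 29.9 and 29.0 CPM in TC shZZZ3 (log2 fold change 1.56, SE 0.212, edgeR adjusted p 0.00396), with the libraries of each pair close together. Its TC shNT values were also used in choosing it, so this p is not free of the choice. IL1B read 0.496 and 0.573 CPM in TC shNT and 2.03 and 1.92 CPM in TC shZZZ3 (1.73, SE 0.416), on the threshold at an edgeR adjusted p of 0.04996. These were the 2 members called, both higher, where 0.934% of genes tested were called higher and 0.592% lower. The median of the members was 0.35, against -0.01 over all genes tested. CCL2 read 71.4 and 52.9 CPM in TC shZZZ3, above both shNT libraries, without passing (0.96, SE 0.252, edgeR adjusted p 0.110). It passed in DESeq2 (adjusted p 0.0199), in edgeR without a filter on low counts (adjusted p 0.0105) and in edgeR fitted with a replicate block (adjusted p 0.0479). LIF stayed at 2.60 and 2.51 CPM (0.09, edgeR adjusted p 0.962), and IL6 at 0.812 and 0.641 CPM was at 0.70 (edgeR adjusted p 0.635). CXCL1, CXCL3, CXCL8 and IL11 lay between -0.06 and 0.15, and CXCL2 was at 0.55 with 4 and 7 counts. Markers also differed between these groups. FN1 had a mean of 8767 CPM in TC shNT and 3589 CPM in TC shZZZ3. Of 8 mesenchymal markers 1 was called lower and 0 higher. The summed epithelial markers were 285 to 535 CPM in TC shNT and 748 to 910 CPM in TC shZZZ3, with 0 of 4 called. The part of these markers in the rises of CXCL12 and IL1B was not tested. CXCL12 did not pass without TC shZZZ3 replicate 1 (1.54, edgeR adjusted p 0.0518). IL1B did not pass without either TC shNT, TC shZZZ3, YT shNT or YT shYEATS2 library (1.63 to 1.80, edgeR adjusted p 0.0529 to 0.277), nor with library totals, with the filterByExpr filter or when the TC groups were fitted alone (edgeR adjusted p 0.0510 to 0.0670).

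In YT cells the same hairpin went with less IL6 and LIF. IL6 read 2.11 and 3.05 CPM in YT shNT and 0.509 and 0.804 CPM in YT shZZZ3 (log2 fold change -1.85, SE 0.401, edgeR adjusted p 0.00985). LIF read 9.56 and 10.5 CPM in YT shNT and 5.17 and 5.37 CPM in YT shZZZ3 (-0.91, SE 0.217, edgeR adjusted p 0.0204). In neither gene did the groups overlap, and the YT shZZZ3 level of IL6 was within the range of the TC libraries. These were the 2 members called, both lower, where 4.40% of genes tested were called higher and 5.62% lower. The median of the members was -0.46, against 0.01 over all genes tested. CXCL12, at 20.3 and 18.1 CPM against 16.5 and 17 CPM, was at 0.20 (SE 0.207, edgeR adjusted p 0.605), and CCL2 was at 0.07 (edgeR adjusted p 0.896). CXCL3, at 0.801 and 0.634 CPM against 0.158 and 0.345 CPM, was at 1.26 without passing (SE 0.698, edgeR adjusted p 0.203), on 22 and 15 counts. The YT shZZZ3 libraries stood apart in CXCL8, at 1.38 and 3.55 CPM, and IL1B was at -0.65 with overlapping groups (edgeR adjusted p 0.274). Markers moved with this hairpin as well: the summed endothelial markers were 40.5 to 42.3 CPM in YT shNT and 137 to 139 CPM in YT shZZZ3, with 2 of 4 called higher, and of 8 mesenchymal markers 3 were called higher and 1 lower, FN1 having a mean of 9438 CPM in YT shNT and 3049 CPM in YT shZZZ3. Their part in the falls of IL6 and LIF was not tested. IL6 did not pass without YT shNT replicate 2 (-1.55, edgeR adjusted p 0.113) or without YT shZZZ3 replicate 1 (-1.53, edgeR adjusted p 0.0792). LIF did not pass without any 1 of the 4 libraries compared (-0.96 to -0.82, edgeR adjusted p 0.0597 to 0.170), without a filter on low counts or in a fit of the YT groups alone (edgeR adjusted p 0.0620 and 0.0734).

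The difference between the lines in the effect of the ZZZ3 hairpin was then tested itself (YT minus TC, an interaction). It was called for CXCL12 at -1.37 (SE 0.294, edgeR adjusted p 0.0228), for IL1B at -2.39 (SE 0.548, edgeR adjusted p 0.0229) and for IL6 at -2.55 (SE 0.619, edgeR adjusted p 0.0271). The choice of CXCL12 used its values in both shNT groups that enter here, so its p is not free of that choice. In CXCL12 the hairpin effect was positive in TC and near 0 in YT, in IL6 negative in YT, and in IL1B positive in TC and negative in YT, the YT value not passing by itself. The 3 calls were all lower in YT, where 1.46% of genes tested were called higher and 2.86% lower. The median of the members was -0.95, against 0.04 over all genes tested. LIF was at -1.0 (SE 0.320, edgeR adjusted p 0.110) and CCL2 at -0.89 (SE 0.353, edgeR adjusted p 0.213), so that for these the effects of the hairpin were not shown to differ. CXCL1, CXCL2, CXCL3, CXCL8 and IL11 did not pass, with values from -1.01 to 1.32. These calls depended on single libraries. CXCL12 was lost without either TC shZZZ3, YT shNT or YT shYEATS2 library or YT shZZZ3 replicate 2 (-1.39 to -1.26, edgeR adjusted p 0.0531 to 0.116). IL1B was lost without TC shNT replicate 1, either TC shZZZ3 library, YT shNT replicate 2 or YT shZZZ3 replicate 2 (-2.43 to -1.90, edgeR adjusted p 0.0563 to 0.119). IL6 was lost without TC shNT replicate 2, YT shZZZ3 replicate 1 or either TC shZZZ3, YT shNT or YT shYEATS2 library (-2.74 to -2.11, edgeR adjusted p 0.0609 to 0.144) and in a fit of these groups alone (edgeR adjusted p 0.0656).

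**Figure D3:**
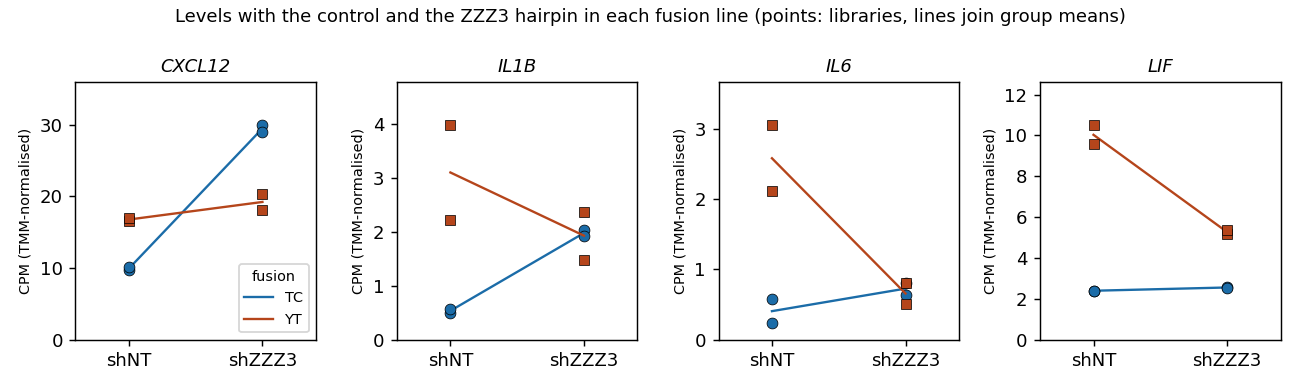
CPM (TMM-normalised) of CXCL12, IL1B, IL6 and LIF with the control and the ZZZ3 hairpin in the TC (blue circles) and YT (red squares) lines; points are libraries and lines join group means. IL6 and IL1B end within the same range in both lines under shZZZ3, at 0.509 to 0.812 CPM and 1.48 to 2.37 CPM.

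The fusion lines were also compared with the ZZZ3 hairpin in both. The libraries compared are not among those whose CXCL12 values the choice rested on, though the spread was estimated from all 6 groups. LIF alone was called, higher in YT shZZZ3 at 1.02 (SE 0.228, edgeR adjusted p 0.0340), with 5.17 and 5.37 CPM against 2.60 and 2.51 CPM. That is 1 of 10 members, where 1.52% of genes tested were called higher and 1.10% lower. IL6 was at -0.15 (SE 0.441, edgeR adjusted p 0.944) and IL1B at -0.03 (SE 0.361, edgeR adjusted p 0.991), with overlapping groups. CXCL12 was lower in both YT libraries, at -0.61, without passing (SE 0.206, edgeR adjusted p 0.179), and CCL2 was at 0.17. The LIF call was lost without any 1 of 8 libraries, those of both shZZZ3 groups, YT shNT and YT shYEATS2 (0.98 to 1.09, edgeR adjusted p 0.0549 to 0.281), and in a fit of the shZZZ3 groups alone (edgeR adjusted p 0.122). Whether a member's difference between the lines depends on the hairpin is the same interaction as above, called for CXCL12, IL1B and IL6.

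The YEATS2 hairpin gave the values on which the list was built, so they are described and nothing is read from them. CXCL12 read 29.4 and 41.1 CPM in TC shYEATS2 against 9.73 and 10.1 CPM in TC shNT (log2 fold change 1.82, SE 0.213), and its log2 fold change was 1.54 without TC shYEATS2 replicate 2. In YT shYEATS2 it read 5.99 and 6.19 CPM against 16.5 and 17 CPM in YT shNT (log2 fold change -1.45, SE 0.216), and the difference between the lines was -3.27 (SE 0.303). YT shYEATS2 held the lowest CXCL12 of the series and TC shYEATS2 the highest. CXCL1 had the opposite signs, with 2.54 and 3.25 CPM in YT shYEATS2 against 0.845 and 1.09 CPM in YT shNT (1.5, SE 0.366) and 0.529 and 0.954 CPM in TC shYEATS2 against 1.03 and 1.10 CPM in TC shNT (-0.50, SE 0.391). LIF read 13.4 and 16.6 CPM in YT shYEATS2, the highest pair of the series (0.58, SE 0.213), where shZZZ3 gave the lowest YT pair. IL6 read 3.75 and 3.30 CPM there (0.44, SE 0.354). In TC shYEATS2 LIF was at 0.14 and IL6 at 1.05 (1.09 and 0.804 CPM against 0.572 and 0.239 CPM). CXCL2 was at 3 and 0 counts in TC shYEATS2, the floor of detection, and no fold is given. CXCL3 was at 1.15, IL11 at 0.71, CXCL2 at 0.27, IL1B at 0.20, CCL2 at 0.16 and CXCL8 at -0.23 in YT shYEATS2. CXCL12 was in the list because of these values, so its call is fixed by the choice, and nothing is read from the counts. The count of members called was 1 in TC (0.0326% of all genes called higher and 0.0109% lower), 2 in YT (9.61% and 11.1%) and 2 for the difference (3.53% and 5.84%).

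The genes whose levels followed CXCL12 most closely over the 12 libraries were CLSTN2 (Pearson r of log2 CPM 0.976), SCAF4 (0.927), ZBED4 (0.920), SULF2 (0.915) and PIP5K1B (0.906), among the 13258 genes that averaged 50 counts or more. The points share their groups of 2 libraries, so these values describe the order of the 6 groups. CLSTN2, which codes for a calsyntenin of the cell surface, averaged 6.87 ± 0.489 CPM (SD, n = 2) in TC shNT, 27.5 ± 13.5 CPM in TC shYEATS2 and 21.3 ± 3.08 CPM in TC shZZZ3. In YT it averaged 9.46 ± 0.689 CPM with shNT, 3.63 ± 0.485 CPM with shYEATS2 and 10.6 ± 0.434 CPM with shZZZ3. SULF2, an extracellular heparan sulfate sulfatase, ran over a narrower range, from 195 ± 9.69 CPM in YT shYEATS2 to 334 ± 22.8 CPM in TC shZZZ3.

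The receptors of the chemokine members were scarce. Of 23 chemokine receptors, 10 passed the minimum count. CXCR1 had 1 count in all 12 libraries together, and CXCR2 and CCR2 did not pass the minimum, with at most 7 and 10 counts in a library. CXCR4, the signalling receptor of CXCL12, had 139 and 3 counts in TC shYEATS2 (4.90 and 0.151 CPM), 41 and 23 counts in TC shZZZ3 and 1 to 8 counts in each other library, so that its highest value came from 1 library of a pair that stood apart. Its fitted values passed in none of the 5 comparisons without shYEATS2 (edgeR adjusted p 0.361 to 0.885). ACKR3, which takes up CXCL12, read 4.22 and 2.99 CPM in YT shNT, 0.416 and 0.774 CPM in YT shYEATS2 and 1.89 and 0.804 CPM in YT shZZZ3 (-1.35, SE 0.438, edgeR adjusted p 0.0664 for shZZZ3). ACKR1, a receptor that binds many chemokines without signalling, was lower in YT between the shNT lines (-1.94, SE 0.385, edgeR adjusted p 0.00590), rose in YT shZZZ3 (1.47, SE 0.392, edgeR adjusted p 0.0232) and was lower in YT shZZZ3 than in TC shZZZ3 (-1.78, edgeR adjusted p 0.00966).

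The receptors of the cytokine members were expressed, and of IL6R, LIFR, IL6ST, IL11RA and IL1R1 only IL6R passed between the shNT lines. Of 25 genes of the IL-6 family and its JAK and STAT3 pathway other than the members, 22 were tested. In YT shNT against TC shNT 5 were called higher and 1 lower (median 0.70, against -0.01 over all genes tested). Over all genes tested, 5.58% were called higher and 3.65% lower. IL6R, the specific receptor of IL6, read 8.96 and 9.03 CPM in TC shNT and 40.3 and 45.9 CPM in YT shNT (2.25, SE 0.287, edgeR adjusted p 0.000811). OSMR, the receptor of oncostatin M, was at 1.18 (edgeR adjusted p 0.00643), and SOCS3 at 1.27 (edgeR adjusted p 0.0378). LIFR (1.61, SE 0.461, edgeR adjusted p 0.0516), IL6ST (1.06, SE 0.443, edgeR adjusted p 0.168) and IL11RA (-0.24, edgeR adjusted p 0.533) did not pass. The libraries of IL6ST overlapped, at 322 and 838 CPM in TC shNT and 1576 and 846 CPM in YT shNT.

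In YT shZZZ3 7 of these 22 genes fell and 0 rose (median -0.63, against 0.01 over all genes tested). Over all genes tested, 4.40% were called higher there and 5.62% lower. IL6R fell to 18.6 and 16.9 CPM (-1.28, SE 0.276, edgeR adjusted p 0.0141), LIFR to 176 and 366 CPM from 1312 and 673 CPM (-1.87, SE 0.465, edgeR adjusted p 0.0264), the ciliary neurotrophic factor receptor CNTFR by -1.61 (edgeR adjusted p 0.0107) and SOCS3 by -1.36 (edgeR adjusted p 0.0267). IL6ST was at -0.85 (edgeR adjusted p 0.268) and IL11RA at -0.11 (edgeR adjusted p 0.794). In TC shZZZ3 none (0) of the 22 was called by edgeR, with 6 at an unadjusted p under 0.05 and 1 called by DESeq2, and IL6R was at 0.88 (edgeR adjusted p 0.199). Few genes of any kind were called by edgeR there, 0.934% higher and 0.592% lower. The difference between the lines was called for 4, all lower in YT, among them IL6R (-2.16, edgeR adjusted p 0.0117), SOCS3 (-2.13, edgeR adjusted p 0.0282) and the STAT-induced kinase PIM1 (-2.06, edgeR adjusted p 0.00592). For this difference 1.46% of all genes tested were called higher and 2.86% lower. With both lines under shZZZ3, 2 were called, both lower in YT (among them PIM1 at -1.24), and IL6R was at 0.09 and LIFR at -0.01. The shares over all genes tested were 1.52% higher and 1.10% lower. In YT shYEATS2 IL6R read 6.83 and 8.46 CPM (-2.48), CNTFR was at -2.52, LIFR at -1.63 and IL6ST at -1.53.

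**Figure D4:**
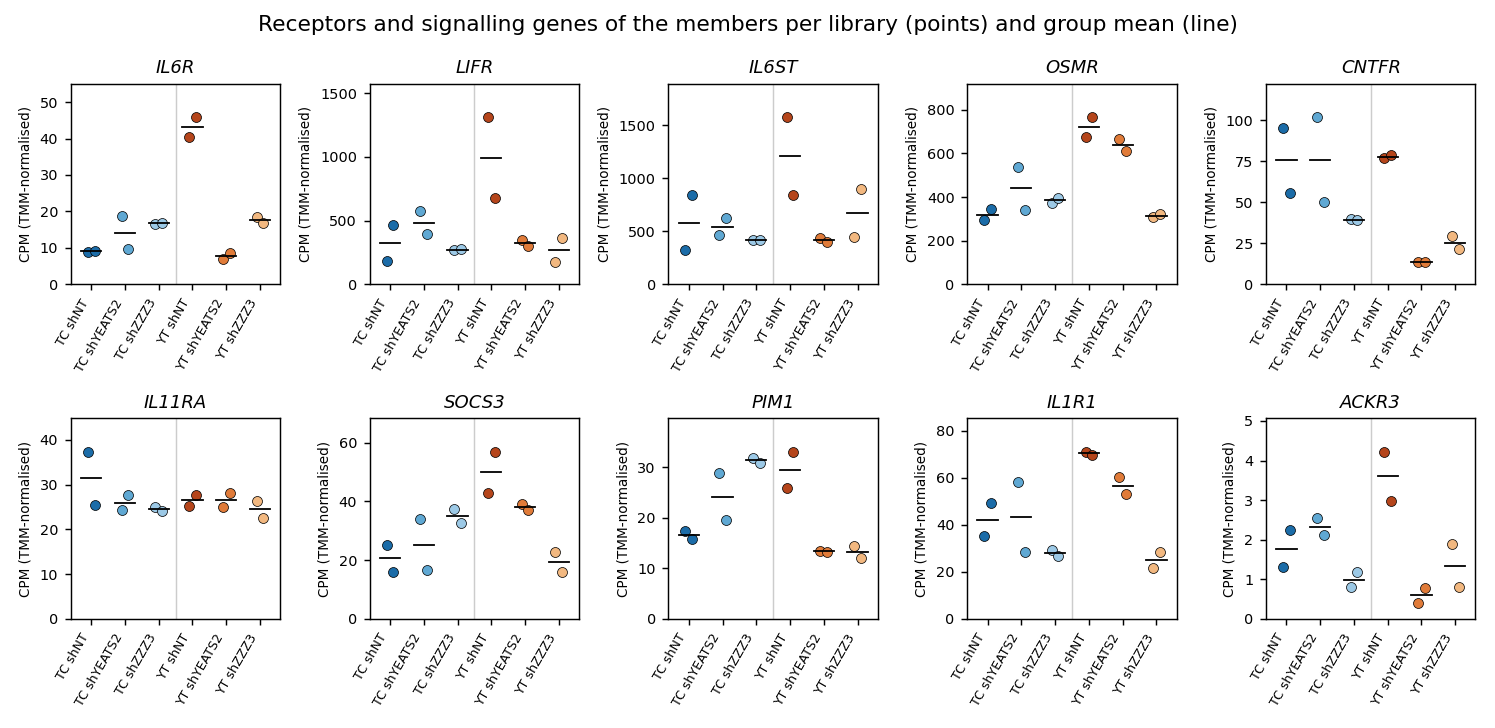
CPM (TMM-normalised, axes from 0) of receptors and signalling genes of the members in the 6 groups; points are libraries and lines are group means. IL6R is at 40.3 and 45.9 CPM in YT shNT and at most 18.7 CPM in each library of the other groups, and the libraries of LIFR and IL6ST lie far apart in TC shNT and YT shNT.

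The other chemokine ligands differed in direction from gene to gene. Of 40 named, 39 were listed and 9 passed the minimum count. CXCL14, a chemokine of epithelia and fibroblasts, read 13.2 and 9.84 CPM in TC shNT and 103 and 94.8 CPM in TC shZZZ3, a rise of 3.09 (SE 0.277, edgeR adjusted p 0.000424) and the 1 call of the 9 there. Over all genes tested, 0.934% were called higher in TC shZZZ3 and 0.592% lower. CXCL14 rose in YT shZZZ3 too (1.27, SE 0.286, edgeR adjusted p 0.0159), to 9.06 and 5.58 CPM, and the rise was smaller in YT (difference -1.82, SE 0.387, edgeR adjusted p 0.0230). Between the shNT lines it was lower in YT (-1.91, edgeR adjusted p 0.00185), and read 23.3 and 17.3 CPM in TC shYEATS2 and 0.375 and 0.465 CPM in YT shYEATS2. Both CXCL14 and CXCL12 rose in TC shZZZ3, while between the shNT lines CXCL14 was lower and CXCL12 higher in YT. CX3CL1 (fractalkine, a membrane-bound chemokine) read 13.5 and 9.17 CPM in TC shNT and 54.8 and 67.7 CPM in YT shNT (2.42, SE 0.448, edgeR adjusted p 0.00651), and fell to 16.9 and 11.5 CPM in YT shZZZ3 (-2.10, SE 0.442, edgeR adjusted p 0.0121). It read 2.58 and 2.53 CPM in YT shYEATS2. CXCL16, also membrane-bound, was higher in YT shNT (1.02, edgeR adjusted p 0.0496) and fell in YT shZZZ3 (-1.05, edgeR adjusted p 0.0415). CXCL5, a neutrophil attractant of the same cluster as CXCL1, rose in YT shZZZ3 (1.92, SE 0.506, edgeR adjusted p 0.0204), from 0.158 and 0.575 CPM to 1.71 and 1.52 CPM, and read 3.87 and 2.48 CPM in YT shYEATS2.

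Some genes of the IL-1 family and some other cytokines were higher in the YT line under shNT. Of 27 IL-1 family genes other than IL1B, 17 were tested, and 5 were called higher and 1 lower in YT shNT (median 0.52). Over all genes tested, 5.58% were called higher in that comparison and 3.65% lower. IL33, an alarmin of the IL-1 family, read 0.954 and 1.29 CPM in TC shNT and 11 and 9.72 CPM in YT shNT (3.12, SE 0.355, edgeR adjusted p 0.000345), and stayed higher in YT under shZZZ3 (2.89, edgeR adjusted p 0.00167). NLRP3, the inflammasome sensor, was higher too (2.29, SE 0.373, edgeR adjusted p 0.00278), and the adaptor MYD88 was lower (-0.77, edgeR adjusted p 0.0492). IL1RL1, the receptor of IL33, had 0 counts in both TC shNT libraries, 17 and 37 counts in YT shNT and 0 counts in both YT shZZZ3 libraries. In YT shZZZ3 IL1R1 fell (-1.49, SE 0.306, edgeR adjusted p 0.0106), from 71.0 and 69.7 CPM to 21.5 and 28.5 CPM, as did its partner IL1RAP (-1.01, edgeR adjusted p 0.0335), and MYD88 rose (0.87, edgeR adjusted p 0.0282), among 3 falls and 1 rise of the 17 (median -0.29). The shares over all genes tested in YT shZZZ3 were 4.40% higher and 5.62% lower. IL1R1 did not pass between the shNT lines (0.74, edgeR adjusted p 0.159) or in TC shZZZ3 (-0.59, edgeR adjusted p 0.538), where none (0) of the 17 was called by edgeR or DESeq2 and 3 had an unadjusted edgeR p under 0.05. Of all genes tested, edgeR called 0.934% higher and 0.592% lower in TC shZZZ3. In YT shYEATS2 IL33 read 1.12 and 0.826 CPM. Of 24 other inflammatory cytokines and receptors 15 were tested, and 4 were called higher and 0 lower in YT shNT, among them IL34, a ligand of the CSF1 receptor (2.57, edgeR adjusted p 0.00576), TNFSF15 (1.65, edgeR adjusted p 0.0110) and TSLP (1.80, edgeR adjusted p 0.0364). IL34 fell in YT shZZZ3 from 3.70 and 4.95 CPM to 0.182 and 0.338 CPM (-3.67, SE 0.553, edgeR adjusted p 0.00137) and CSF1 by -1.13 (edgeR adjusted p 0.0345), the 2 calls there. None (0) was called in TC shZZZ3 by edgeR, with 4 at an unadjusted p under 0.05 and 2 called by DESeq2.

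NF-kB factors and the genes that respond to them were examined beside the members. Of the 5 factors, NFKB1 exceeded its TC shNT level in YT shNT, at 79.8 and 83.2 CPM against 54.0 and 47.2 CPM (0.69, SE 0.179, edgeR adjusted p 0.0345). It was the 1 call among the 5 factors over the 5 comparisons without shYEATS2. RELB was at 0.87 there (edgeR adjusted p 0.216), REL at 0.27, RELA at -0.09 and NFKB2 at -0.02, and in YT shZZZ3 the 5 lay between -0.62 (RELB) and 0.31 (RELA), with edgeR adjusted p 0.187 to 0.891. Of 43 inhibitors, kinases and responsive genes 38 were tested, of which 7 were called higher and 2 lower in YT shNT (median 0.30). Over all genes tested, 5.58% were called higher in this comparison and 3.65% lower. The adhesion molecule ICAM1 read 227 and 172 CPM in TC shNT and 828 and 1033 CPM in YT shNT (2.22, SE 0.210, edgeR adjusted p 0.000134), and LCN2 (lipocalin 2) had 3 and 2 counts in TC shNT and 65 and 95 counts in YT shNT. TNFAIP3, which codes for the NF-kB inhibitor A20, was lower (-0.83, edgeR adjusted p 0.0182). In YT shZZZ3 6 fell and 0 rose (median -0.28), among them C3, complement component 3 (-1.83, SE 0.301, edgeR adjusted p 0.00336), BIRC3 (-1.89, edgeR adjusted p 0.0355) and LCN2, to 3 and 1 counts. The shares over all genes tested in YT shZZZ3 were 5.62% lower and 4.40% higher. In TC shZZZ3 2 rose, C3 (2.60, SE 0.308, edgeR adjusted p 0.00198) and the urokinase gene PLAU (1.22, edgeR adjusted p 0.0223), and 2 fell, VCAM1 (-1.40, edgeR adjusted p 0.0144) and TNFAIP3 (-1.22, edgeR adjusted p 0.00873). Of all genes tested, 0.934% were called higher and 0.592% lower in TC shZZZ3. The difference between the lines was called for 5, all lower in YT, among them C3 (-4.43, SE 0.430, edgeR adjusted p 0.000484) and ICAM1 (-2.02, SE 0.287, edgeR adjusted p 0.00344). For this difference 1.46% of all genes tested were called higher and 2.86% lower. Under shZZZ3 2 were called lower in YT, C3 (-2.38) and LCN2, where 1.52% of all genes tested were called higher and 1.10% lower.

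**Figure D5:**
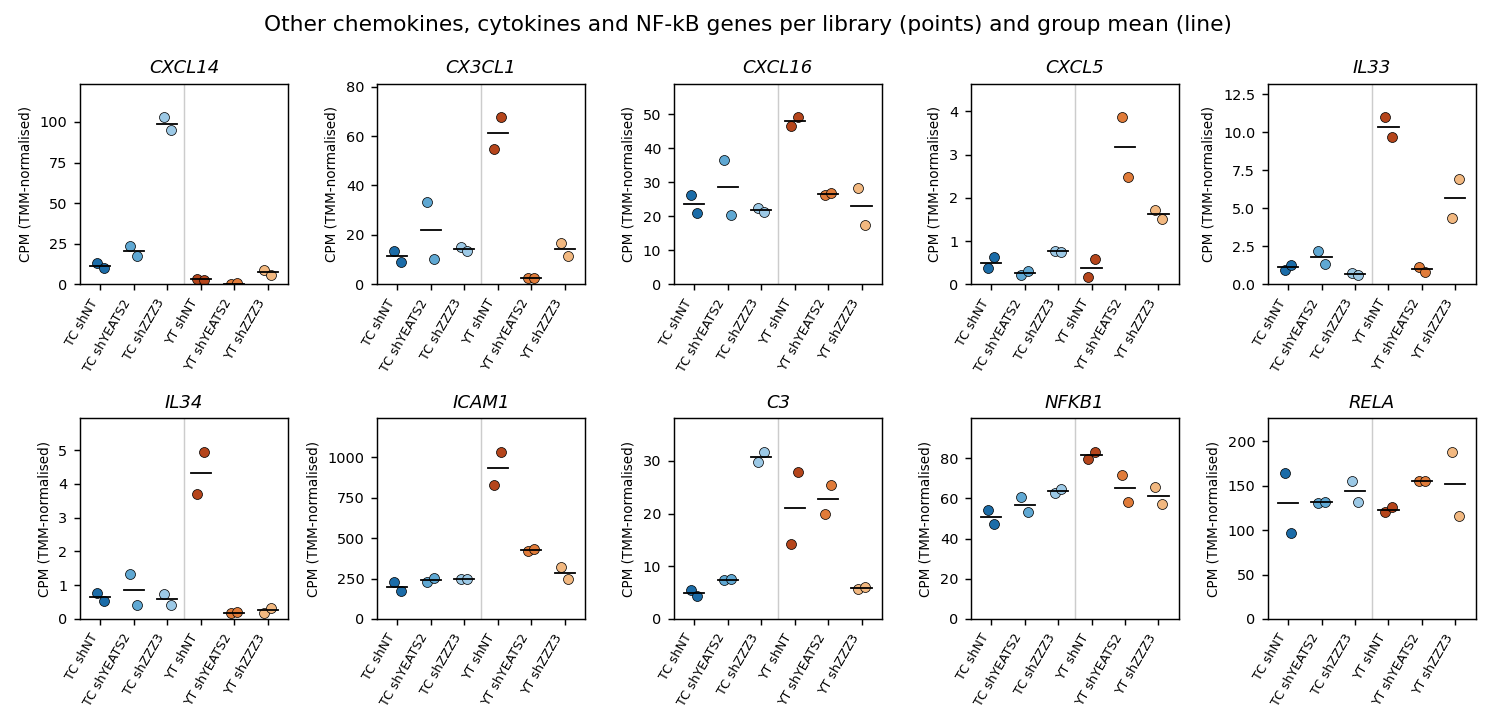
CPM (TMM-normalised, axes from 0) of other chemokines, cytokines and NF-kB genes in the 6 groups; points are libraries and lines are group means. CXCL14 is highest in TC shZZZ3 (103 and 94.8 CPM), CX3CL1 and ICAM1 in YT shNT, and the group means of RELA run from 123 to 155 CPM.

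Of 11 regulators of cytokine mRNA decay and of the stress kinase pathway that acts on it, such as ZFP36, which binds AU-rich elements, all 11 were tested and none (0) was called by edgeR or DESeq2 in any of the 5 comparisons without shYEATS2, with 0 to 3 at an unadjusted edgeR p under 0.05 and medians between -0.02 and 0.08. Of all genes tested, edgeR called 0.934% to 5.58% higher and 0.592% to 5.62% lower in these comparisons.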

How the data were processed

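RNA was measured in 12 libraries (6 groups of 2) from poly(A)-selected, stranded, paired-end libraries. The deposited values are whole-number counts per Ensembl gene, not normalised. The authors used bcbio-nextgen, HISAT2 on hg38, Salmon with tximport and DESeq2; which step gave the deposited counts, and how strand and reads with several matches were handled, is not given in the sources used here. Totals of 17451893 to 29294805 counts set the precision, and 3 counts were taken as the floor of detection. From the counts, edgeR 4.0.16 (R 4.3.3) quasi-likelihood tests were computed with TMM factors and all 6 groups in 1 fit, on the 18415 genes that averaged 5 counts or more, with Benjamini-Hochberg adjustment over all of them, a threshold of 0.05 and a prior count of 2. The log2 fold changes given are shrunk by the prior count. Each SE is the absolute unshrunk log2 fold change divided by the square root of the F statistic, so it belongs to the unshrunk value. Levels are TMM-normalised CPM. The script was tested on simulated data. Alternatives were DESeq2 1.42.0, other factors and filters, the compared groups alone, a replicate block, a prior count of 0.5 and each library left out. GENCODE release 44 (GRCh38) gave gene positions and lengths and held 99.1% of the IDs.

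The members and the gene lists were chosen with earlier results of these data known, so no p adjusted over a list alone is given, and the comparisons with shYEATS2 carry no test for them. The other comparisons that use shNT share those libraries with them. All members were named. From each list and comparison, up to 3 called genes per direction with the largest log2 fold change and no overlap between groups (no such condition for differences between lines) could be named, besides the NF-kB factors, the members' receptors, the 5 genes most like CXCL12 and the hairpin targets. The values of 1 gene of these lists are not reported here.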

Additional observations from a re-analysis of the deposited data

Results flagged for a closer look

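The results here are members and named list genes, at most 3 per list and direction, for which the effect of the ZZZ3 hairpin differed between the fusion lines (YT minus TC, log2, tested as an interaction in edgeR with adjustment over all genes). Among the members these were CXCL12 (-1.37, chosen by values that include the shNT libraries used here), IL1B (-2.39) and IL6 (-2.55), whose values by library are given above. Among the gene lists they were the chemokines CX3CL1 (-2.44, adjusted p 0.0484), CXCL14 (-1.82) and CXCL11 (-3.53, adjusted p 0.0497), the last on no more than 15 counts in any library of these 4 groups. In the IL-6 pathway they were IL6R (-2.16), SOCS3 (-2.13) and PIM1 (-2.06). Among the other cytokines they were IL34 (-3.55, adjusted p 0.0194) and IL32 (-2.48, adjusted p 0.0232). Among the NF-kB responsive genes they were C3 (-4.43), ICAM1 (-2.02) and LCN2 (-6.56), whose fitted value depends on the prior count because TC shNT and YT shZZZ3 held at most 3 counts per library. These 14 values are negative, where 1.46% of all genes tested were called higher for this difference and 2.86% lower. Of the marker lists, 1 mesenchymal and 1 endothelial marker were called higher for it. The TC shNT and YT shZZZ3 pairs, which enter each of them, were the 2 with the widest spread between libraries, and their same-numbered libraries deviated from the group means together (correlation 0.898 over genes). The part of that spread in these values was not tested.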

How the results depend on the processing

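The 21 values of a member in a comparison summarised here are those with an adjusted p under 0.05 in at least 1 setting. They kept their sign under each of the 20 alternatives, which this choice favours. The other values were recomputed too but are not summarised. The number of members called changed as follows. With library totals, with filterByExpr and in a fit of the compared groups alone, TC shZZZ3 gave 1, and without a filter, with DESeq2 and with the replicate block 3. For YT shNT against TC shNT the 6 calls became 5 (RLE size factors, no filter, filterByExpr) or 4 (library totals, groups alone). Without a filter and in a fit of the groups alone, YT shZZZ3 gave 1. In a fit of the groups alone, YT shZZZ3 against TC shZZZ3 gave 0, TC shYEATS2 gave 0, the difference of the shZZZ3 effects 2 and YT shYEATS2 3. When 1 library was left out, the count ran from 0 to 2 for TC shZZZ3, 0 to 2 for YT shZZZ3, 0 to 3 for their difference, 3 to 6 for YT shNT against TC shNT, 0 to 1 for YT shZZZ3 against TC shZZZ3, 0 to 1 for TC shYEATS2, 1 to 2 for YT shYEATS2 and 1 to 2 for the difference of the shYEATS2 effects. Leaving out a library lowers the residual degrees of freedom, and a group left with 1 library is assumed to vary like the others. Over the alternatives of the 21 values, 340 kept their side of the threshold or, in comparisons with shYEATS2, moved by less than their SE. For the members' values with shYEATS2 the threshold served to select them, and a change was judged by the SE. Of the rest, 76 lost the call, 3 gained it and 1 moved by more than its SE (CXCL12 in TC shYEATS2, 1.54 without replicate 2).

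Same-numbered libraries of different groups deviated from their group means with correlations of -0.438 to 0.898, positive among the TC groups and YT shZZZ3 (0.1795 to 0.8981) and -0.438 to 0.2507 in the pairs with YT shNT or YT shYEATS2. Since not every pair is positive and no label ties the numbers, they were not taken to pair the samples. With the replicate block, CCL2 in TC shZZZ3 was at 0.96 (edgeR adjusted p 0.0479), and over all genes the calls in TC shYEATS2 went from 8 to 28 and in TC shZZZ3 from 281 to 353. Depth limits CXCL2, CXCL3 and IL6 in TC, which rest on few counts.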
